A study of Mus musculus with 230 samples.

Results

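The classical histone deacetylases are zinc-dependent enzymes that take acetyl groups off lysines. Of the 53278 genes in the deposited count table, 11 are named Hdac with a number, and 10 of them, Hdac1 to Hdac9 and Hdac11, were chosen by name for description here. All 10 passed the filter on low counts, as did 14212 genes in all. RNA came from hand-picked sensory neurons of lumbar dorsal root ganglia (DRG) of mice from C57BL/6 X CAST/Ei crosses, either with a sciatic nerve injury or intact. The 18 low-input libraries formed 6 groups of 3, which were injured and intact neurons at 1, 8 and 12 months of age, and 69 single cells formed 4 groups, at 1 month 21 from injured and 18 from intact neurons, at 1 year 22 and 8. In single cells the RNA was taken from the cytoplasm after the nucleus had been removed. The labels name no transgene, drug or further allele, and they give neither the animal behind a library nor the time between injury and sampling, so that p-values measure only the spread between these libraries. The methylation samples are not analysed here.

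Deacetylation of histone tails compacts chromatin and is usually linked to lower transcription, and the family is grouped by similarity to yeast enzymes. Class I enzymes (Hdac1, Hdac2, Hdac3 and Hdac8) are largely nuclear, and Hdac1, Hdac2 and Hdac3 work inside corepressor complexes such as Sin3, NuRD, CoREST and NCoR. Class IIa enzymes (Hdac4, Hdac5, Hdac7 and Hdac9) have weak catalytic activity, bind MEF2 factors, and move between nucleus and cytoplasm when kinases phosphorylate them and 14-3-3 proteins hold them. Hdac6, of class IIb, is a cytoplasmic enzyme that deacetylates tubulin, cortactin and Hsp90, and Hdac11 is the only class IV member and removes long fatty acyl groups. In injured sensory neurons the family is best known for the export of Hdac5 from the nucleus and its action on axonal tubulin, events at the protein level that RNA counts do not measure.

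Levels are given as CPM, the count of a gene scaled to a common library total after TMM normalisation. Injured libraries held 4332515 to 6812005 counts outside the single most abundant feature, CT010467.1, and intact libraries 770328 to 11587094. That feature took 29.4% to 59.7% of the counts in injured and 40.4% to 93.8% in intact libraries. Intact replicate 2 at 12 months stood apart with the lowest total, and it held 86 counts over the 10 deacetylase genes, against 536 to 3722 in the 17 other libraries. The 10 genes of the sensory neuron list had counts in all 18 libraries and summed to 5941 to 9990 CPM. Genes of the immune list summed to between 0 and 32.5 CPM. Satellite glia genes summed to 115 to 2034 CPM in injured and 46.6 to 742 CPM in intact libraries.

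RefSeq start sites of GRCm38.p6 gave promoter windows, 250 bases before the start to 50 bases after it, for 8 of the 10 genes, in 12 windows. Those of Hdac6 and Hdac11 are shown because these genes had the smallest adjusted p-values in the comparison of injured with intact neurons. The Hdac6 window lies at chrX:7947840-7948139 on the minus strand and the Hdac11 window at chr6:91156565-91156864 on the plus strand. Capitals mark matches, on either strand, to the GC box bound by Sp1 (GGGCGG) and the E-box (CANNTG), and no match overlapped another motif.
Hdac6: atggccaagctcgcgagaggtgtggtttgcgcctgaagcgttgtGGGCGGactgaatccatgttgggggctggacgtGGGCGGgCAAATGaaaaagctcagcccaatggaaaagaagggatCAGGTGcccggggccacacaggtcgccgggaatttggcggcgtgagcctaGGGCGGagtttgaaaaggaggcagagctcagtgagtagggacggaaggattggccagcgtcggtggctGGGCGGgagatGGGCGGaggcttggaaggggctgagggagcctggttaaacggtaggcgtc
Hdac11: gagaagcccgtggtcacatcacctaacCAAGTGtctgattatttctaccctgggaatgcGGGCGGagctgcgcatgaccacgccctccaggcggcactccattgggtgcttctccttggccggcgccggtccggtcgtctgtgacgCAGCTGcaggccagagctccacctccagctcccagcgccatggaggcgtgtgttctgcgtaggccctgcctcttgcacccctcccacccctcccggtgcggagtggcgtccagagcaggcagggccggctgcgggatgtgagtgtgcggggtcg
Hdac6 held 5 GC boxes and 2 E-boxes, and Hdac11 held 1 GC box and 2 E-boxes. Among all 32851 windows of this length, 35.7% held a GC box and 72.3% an E-box. Neither window held the AP-1 motif (TGANTCA) or the CRE motif (TGACGTCA), which 7.81% and 1.79% of all windows held. Over all members with a window, 2 genes held an AP-1 motif (Hdac7 and Hdac9), none a CRE motif, 6 a GC box and 6 an E-box. Counted by gene in the same way, over 27025 genes with a window, the shares were 8.97%, 2.03%, 38.2% and 75%. The bases G and C made up 62% of the Hdac6 window and 66.7% of the Hdac11 window, against a median of 52.7% over all windows.

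Because exon length differs between the genes, their levels were compared as CPM per kb of exon. Hdac3, a class I enzyme of the NCoR complex, had the highest mean over the 18 libraries, 6.23 ± 2.17 CPM per kb (SD). Hdac11 followed at 4.96 ± 1.35 and Hdac2 at 4.74 ± 1.63 CPM per kb. Neighbours in this order were compared within libraries by a two-sided permutation test, adjusted over the 9 pairs. Hdac3 was above Hdac11 in 13 of 18 libraries (adjusted p = 0.0789) and Hdac11 above Hdac2 in 11 of 18 (adjusted p = 0.677), so these neighbours did not differ beyond their spread. Hdac2 was above Hdac6 (3.19 ± 1.47 CPM per kb) in 15 of 18 libraries (adjusted p = 0.0110), and Hdac6 above Hdac1 (2.07 ± 0.99 CPM per kb) in 14 of 18 (adjusted p = 0.0315). Hdac1 was above Hdac5 (1.19 ± 0.95 CPM per kb) in 16 of 18 libraries, but their mean difference did not pass (adjusted p = 0.0608). Hdac5 was highest in intact replicate 2 at 12 months, at 4.53 CPM per kb on 22 counts. Hdac5 and Hdac4 (1.12 ± 0.68 CPM per kb) did not differ beyond their spread (adjusted p = 0.663). Hdac4 was above Hdac9 (0.61 ± 0.35 CPM per kb) in 15 of 18 libraries (adjusted p = 0.0292). Hdac9 and Hdac8 (0.57 ± 0.27 CPM per kb) could not be ordered (adjusted p = 0.677). Hdac7 was lowest at 0.26 ± 0.30 CPM per kb, below Hdac8 in 15 of 18 libraries (adjusted p = 0.0315). The class IIa genes thus took places 6, 7, 8 and 10. This order depends on the division by exon length, since the class IIa genes have the longest annotated exons of the family. In CPM without that division, Hdac4, Hdac5 and Hdac9 had higher means than Hdac1 in injured and in intact libraries. Summed over the 10 genes, Hdac3 made up 23.5% of the CPM per kb in intact and 26.4% in injured libraries. Hdac11 made up 24% in intact and 16% in injured libraries, and Hdac6 8.93% and 16.5%.

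**Figure D1:**
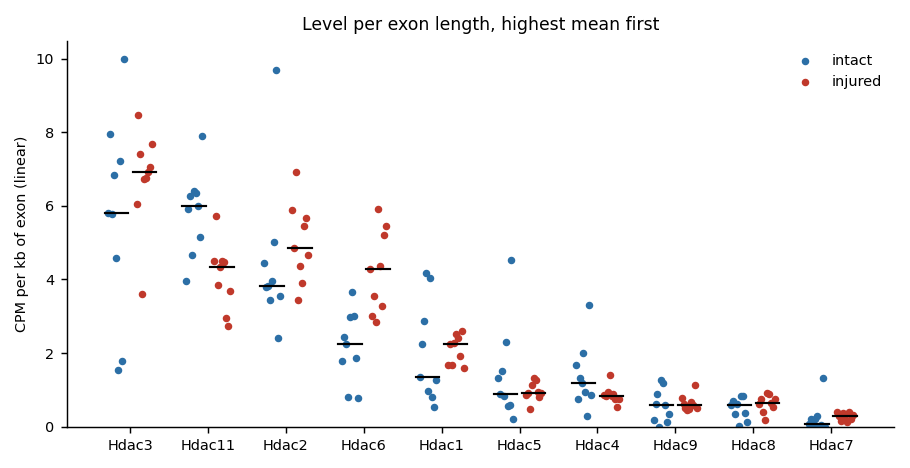
Level of each histone deacetylase gene as CPM per kb of exon (linear axis), 1 point per low-input library, intact in blue and injured in red, with the median of each 9 libraries as a bar. Genes are ordered by their mean over 18 libraries, from Hdac3 (6.23) to Hdac7 (0.26).

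Whether injury changes the level of these transcripts whatever the age was asked by averaging the contrast of injured and intact neurons over the 3 ages. None of the 10 genes passed an edgeR adjusted p of 0.05, in a comparison that called 6.18% of the 14212 genes tested. At an unadjusted p below 0.05 there were 2 of the 10, Hdac6 and Hdac11, against 20.3% of all genes tested. The mean was higher in injured neurons for 7 members and lower for 3 (Hdac4, Hdac5 and Hdac11), and 52.7% of all genes were higher. The median log2 change was 0.16 over the members and 0.03 over all genes. Under DESeq2 2 members were called, Hdac6 (adjusted p = 0.0231) and Hdac11 (adjusted p = 0.00472), where it called 10.9% of genes. The same 2 passed with limma-voom and sample quality weights (adjusted p = 0.0396 and 0.0304), where 8.75% of genes did. These values are relative to the other transcripts of the library. Scaled to the ERCC spike-ins, the median of all genes was higher by 2.90 on the log2 scale in injured libraries, and all 10 members, Hdac4, Hdac5 and Hdac11 included, were called higher, as were 94.9% of all genes. Under that scaling all 10 were also called higher at 12 months, with 96.2% of all genes, and lower at 12 than at 1 month in intact neurons, with 89.9%.

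**Figure D2:**
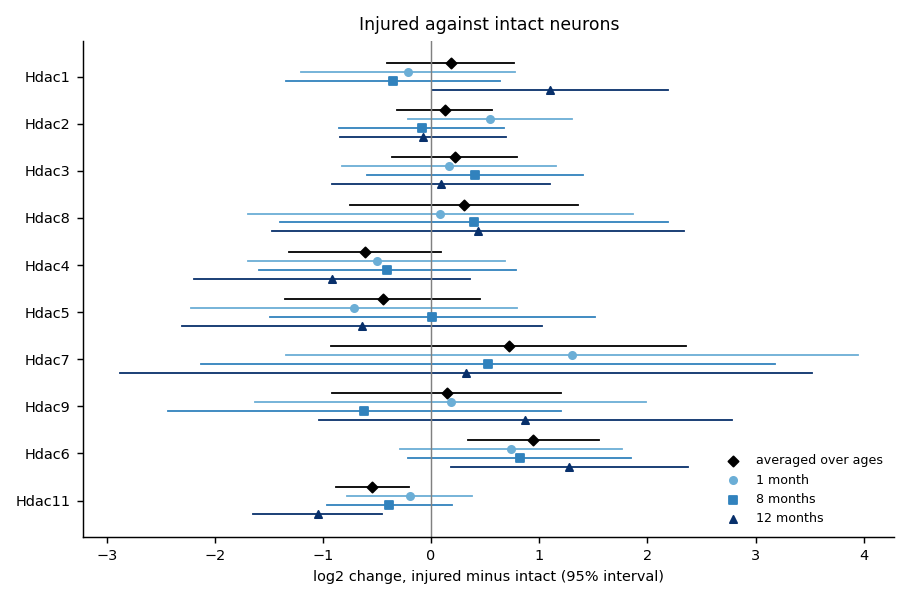
Log2 change of each gene between injured and intact low-input libraries (edgeR with TMM scaling), averaged over ages (black diamonds) and at 1, 8 and 12 months (blue symbols), with 95% intervals as lines. The averaged intervals of Hdac6 (0.34 to 1.55) and Hdac11 (-0.88 to -0.21) leave out 0 before adjustment over genes. Under spike-in scaling all averaged changes are above 0, those of Hdac4, Hdac5 and Hdac11 included.

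Hdac6, the tubulin deacetylase, was the member with the largest averaged difference. At 1 month it was at 24.9, 17.6 and 20.7 CPM in the 3 injured libraries and at 10.3, 14.2 and 13.1 CPM in the intact ones. At 8 months the values were 16.6, 34.4 and 25.4 CPM in injured against 4.64, 17.3 and 21.4 CPM in intact libraries. At 12 months they were 19, 30.3 and 31.8 CPM in injured against 17.5, 10.8 and 4.56 CPM in intact libraries. Injured libraries lay above the intact ones with no overlap at 1 and 12 months, and the groups overlapped at 8 months. The averaged log2 change was 0.95 ± 0.29 (SE), a 1.93-fold higher level with a 95% interval of 0.34 to 1.55 on the log2 scale, and missed the threshold with an edgeR adjusted p of 0.0604. Per age the log2 change was 0.74 ± 0.49 at 1 month, 0.82 ± 0.49 at 8 months and 1.28 ± 0.52 at 12 months (edgeR adjusted p = 1.0, 0.566 and 0.188). The gene was called without intact replicate 1 at 12 months (edgeR adjusted p = 0.0229), without injured replicate 1 at 8 months (0.0431), without intact replicate 3 at 8 months (0.0358) and with no filter on low counts (0.00655). In total 7 of 27 alternatives called Hdac6, among them 3 of the 18 fits that left out a single library. Over those 18 fits the edgeR adjusted p reached 0.1285. The share of CT010467.1 also differed between these groups, with medians of 39% in injured and 65.7% in intact libraries, and with that share as a covariate the log2 change of Hdac6 was 0.18 ± 0.59 (edgeR adjusted p = 0.943). The summed CPM of satellite glia genes was higher in injured libraries as well (medians of 694 and 139 CPM). Apoe made up most of it, at a mean of 741 of 889 CPM (injured) and 196 of 291 CPM (intact). Apoe was not called (edgeR adjusted p = 0.501). All 8 genes had an averaged log2 change above 0, and 1 was called. At 12 months the sum had medians of 366 and 91.5 CPM but means of 306 and 293 CPM. Intact replicate 2 of that age was at 742 CPM. The part of these genes in the Hdac6 values was not tested. In libraries of several neurons, more cells with the transcript and more transcript per cell cannot be told apart.

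Hdac11, the class IV member, had the smallest adjusted p of the family. Its gene lies at chromosome 6, 91156665 to 91174692 (GRCm38), and 17.9% of its exon bases are shared with 2 other annotated genes, which makes unstranded counts there less certain. At 1 month it was at 17.4, 22 and 14.8 CPM in injured against at 15.2, 22.8 and 24.1 CPM in intact libraries. At 8 months it was at 16.7, 17.3 and 17.2 CPM in injured against at 17.9, 24.6 and 24.5 CPM in intact libraries. At 12 months it was at 11.4, 10.5 and 14.2 CPM in injured against at 23, 19.9 and 30.4 CPM in intact libraries. The groups overlapped at 1 month and were apart, injured below intact, at 8 and 12 months. The averaged log2 change was -0.54 ± 0.16 (SE, 95% interval -0.88 to -0.21), which missed the threshold with an edgeR adjusted p of 0.0526. Per age it was -0.20 ± 0.27, -0.39 ± 0.27 and -1.05 ± 0.28 (edgeR adjusted p = 1.0, 0.654 and 0.0550). The effect at 12 months minus that at 1 month was -0.85 ± 0.39, with an unadjusted p of 0.0446 from edgeR and an adjusted p of 0.832. The averaged change was called without intact replicate 2 at 12 months (edgeR adjusted p = 0.0220), without intact replicate 1 at 1 month (0.0429), without intact replicate 1 at 8 months (0.0348), with RLE scaling (0.0408) and with a stricter filter (0.0490). In total 8 of 27 alternatives called Hdac11, spike-in scaling with the opposite sign included. Among the 18 fits that left out a single library, 3 called it, and the edgeR adjusted p reached 0.1208. With the share of CT010467.1 as a covariate the averaged change was -0.72 ± 0.35 (edgeR adjusted p = 0.412). Under spike-in scaling its sign turned, to 2.26, below the shift of 2.90 in the median gene.

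**Figure D3:**
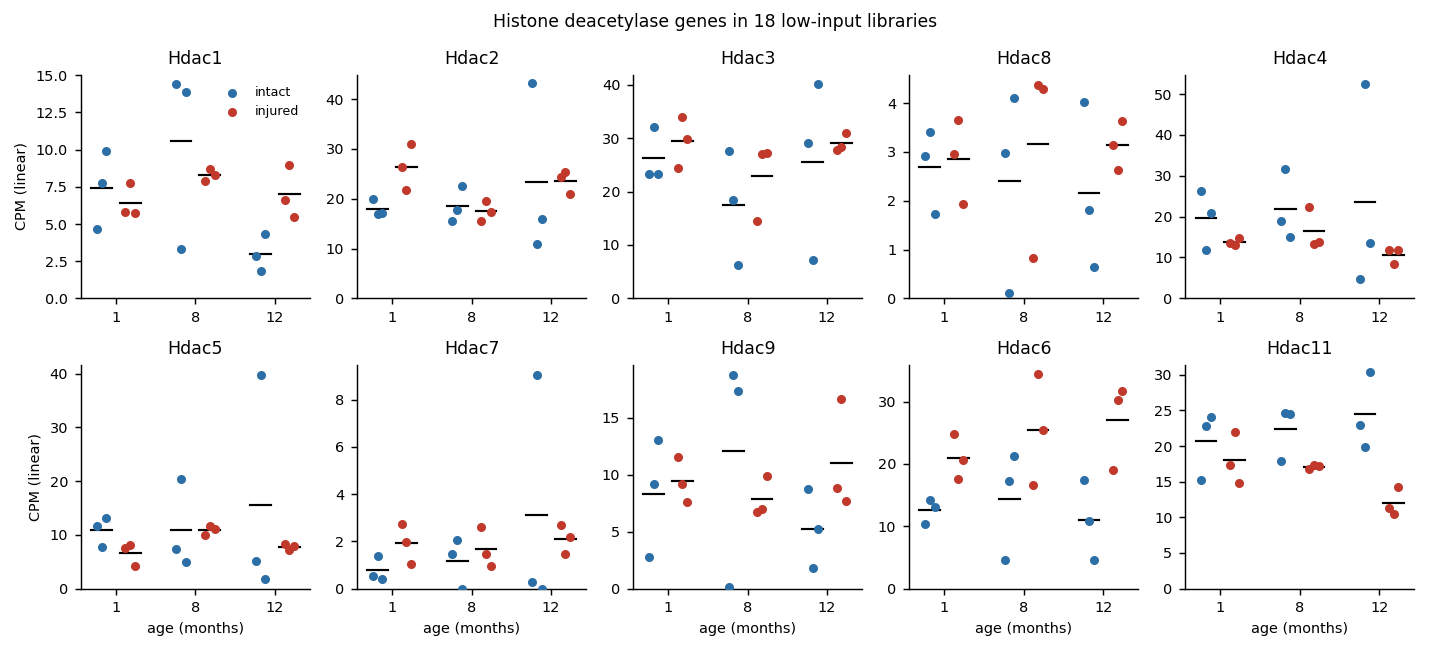
CPM of the 10 genes (linear axes from 0) in each low-input library by age, intact in blue and injured in red, with the mean of 3 libraries as a bar. Injured libraries of Hdac6 lie above the intact ones at 1 and 12 months and those of Hdac11 below them at 8 and 12 months (TMM scaling; under spike-in scaling Hdac11 was higher in injured libraries), and the high intact points of Hdac4, Hdac5 and Hdac7 at 12 months are all 1 library (52.4, 39.7 and 9.03 CPM).

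Counted over the family, 2 of 10 members lay higher in injured than in intact libraries with no overlap at 1 month (Hdac2 and Hdac6), where 10.5% of all genes did, and 0 lay lower, where 7.28% did. At 8 months 0 lay higher and 1 lower (Hdac11), against 9.39% and 4.92% of all genes. At 12 months 2 lay higher (Hdac1 and Hdac6) and 1 lower (Hdac11), against 19.2% and 6.68%. With 3 libraries against 3, an exact permutation test cannot give a two-sided p below 0.1. The edgeR test within an age called no member at 1 month (0.232% of all genes called), at 8 months (0.957%) or at 12 months (2.99%), and 0, 0 and 3 members had an unadjusted p below 0.05, against 4.5%, 12.2% and 18.6% of all genes. Those 3 were Hdac1, Hdac6 and Hdac11.

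Among the class I genes, Hdac1, a catalytic subunit of Sin3, NuRD and CoREST, stood at 5.81, 7.76 and 5.74 CPM in injured against 4.65, 7.76 and 9.92 CPM in intact libraries at 1 month. At 8 months it was at 7.86, 8.68 and 8.33 CPM in injured against 14.4, 3.35 and 13.9 CPM in intact libraries. At 12 months it was at 6.59, 8.96 and 5.47 CPM in injured against 2.82, 1.81 and 4.35 CPM in intact libraries, the intact values all below the injured ones. The 1.81 CPM rest on 1 count. Its log2 change was 1.10 ± 0.52 at 12 months (edgeR adjusted p = 0.264) and 0.18 ± 0.28 averaged over ages (edgeR adjusted p = 0.775). Hdac2, which shares those complexes with Hdac1, was at 26.3, 21.7 and 30.9 CPM in injured against 19.9, 17 and 17.1 CPM in intact libraries at 1 month, groups that did not overlap. Its log2 change there was 0.55 ± 0.36 (edgeR adjusted p = 1.0), and it was -0.09 ± 0.36 at 8 and -0.07 ± 0.36 at 12 months, where the groups overlapped. Hdac3 ranged from 14.5 to 34 CPM in injured and from 6.16 to 40.2 CPM in intact libraries (averaged log2 change 0.22 ± 0.27). Hdac8, which acts outside those complexes, ranged from 0.833 to 4.37 CPM in injured and 0.108 to 4.11 CPM in intact libraries (averaged log2 change 0.31 ± 0.50). The 95% interval of the averaged change was -0.31 to 0.57 for Hdac2, -0.36 to 0.80 for Hdac3 and -0.75 to 1.36 for Hdac8. In this averaged fit with TMM scaling, a 2-fold difference lies inside the interval of Hdac8 and outside those of Hdac2 and Hdac3. Within an age it was not left out for Hdac2 at 1 month (-0.21 to 1.30) or Hdac3 at 8 months (-0.60 to 1.40). Under spike-in scaling the averaged changes of both genes were larger than 2-fold.

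For 3 of the 4 class IIa genes, Hdac4, Hdac5 and Hdac7, the highest intact value came from the same library, intact replicate 2 at 12 months. Hdac4, a MEF2 corepressor and 15813 bp of exon long, was at 26.3, 11.8 and 20.9 CPM in intact libraries at 1 month, 18.9, 31.6 and 14.9 CPM at 8 months and 4.62, 52.4 and 13.5 CPM at 12 months. Injured libraries ranged only from 8.49 to 22.3 CPM. Its averaged log2 change was -0.61 ± 0.33 (95% interval -1.31 to 0.10, edgeR adjusted p = 0.327). Hdac5, the member known for leaving the nucleus of injured sensory neurons, was at 11.7, 7.72 and 13.2 CPM in intact and 7.50, 8.08 and 4.24 CPM in injured libraries at 1 month. At 8 months it was at 7.31, 20.3 and 4.85 CPM in intact and 9.99, 11.6 and 11.1 CPM in injured libraries. At 12 months it was at 5.14, 39.7 and 1.74 CPM in intact and 8.29, 7.21 and 7.94 CPM in injured libraries. The averaged log2 change of Hdac5 was -0.45 ± 0.43 (95% interval -1.35 to 0.45, edgeR adjusted p = 0.608). The values of 52.4 CPM for Hdac4 and 39.7 CPM for Hdac5 are from intact replicate 2 at 12 months and rest on 29 and 22 counts. Without that library the averaged log2 changes were -0.21 ± 0.24 for Hdac4 and 0.15 ± 0.29 for Hdac5, the latter with its sign turned. Of the exon bases of Hdac4, 22.4% are shared with the annotated gene Gm26720.

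Hdac7 and Hdac9 complete class IIa. Hdac7 was sparse, with 12 to 45 counts in injured and 0 to 40 counts in intact libraries, and 2 intact libraries had no count. It was at 1.06 to 2.72 CPM at 1 month, 0.956 to 2.59 CPM at 8 months and 1.46 to 2.70 CPM at 12 months in injured libraries. Intact libraries ranged from 0 to 9.03 CPM with a median of 0.525 CPM, and the highest value rests on 5 counts in intact replicate 2 at 12 months. The averaged log2 change was 0.72 ± 0.78 (95% interval -0.92 to 2.36, edgeR adjusted p = 0.659), and 1.82 ± 0.66 without that library (edgeR adjusted p = 0.0926). Hdac9 ranged from 6.75 to 16.6 CPM in injured and from 0.103 to 18.7 CPM in intact libraries, the lowest being 1 count, with an averaged log2 change of 0.14 ± 0.50 (95% interval -0.92 to 1.21). For both genes the interval holds a 2-fold difference. Hdac10, the other class IIb gene of the table, was outside the chosen set and had an averaged log2 change of 0.01 ± 0.32.

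Ages were compared within intact and within injured neurons, and no member was called in any pair. In intact neurons the comparison called 0.922% of all genes for 8 against 1 month, 0.246% for 12 against 1 month and 6.69% for 12 against 8 months. In injured neurons it called 0.225%, 0.113% and 0.0633% of all genes. At an unadjusted p below 0.05 from edgeR there were 0, 1 and 1 members in intact neurons, Hdac1 each time, and 0, 1 and 0 in injured neurons, where it was Hdac11. The matching shares of all genes were 16.2%, 10.7% and 25.3% in intact and 4.99%, 3.86% and 4.29% in injured neurons, so that 1 of 10 was near or below the background in intact neurons. Hdac1 in intact neurons was lower at 12 than at 8 months by a log2 change of -1.69 ± 0.52 (10.6 ± 6.24 CPM at 8 and 2.99 ± 1.28 CPM at 12 months, SD, n = 3 each; edgeR adjusted p = 0.0601), although intact replicate 2 at 8 months, at 3.35 CPM, lay within the range of the 12-month values. Intact libraries at 12 months held 54 Hdac1 counts in all. Without intact replicate 2 at 8 months the log2 change was -2.11 ± 0.43 (edgeR adjusted p = 0.0247). That library goes against the difference, so leaving it out was bound to enlarge the change. DESeq2 called Hdac1 as well (adjusted p = 0.0245), in a comparison where it called more genes than edgeR did. Hdac11 in injured neurons was lower at 12 than at 1 month by a log2 change of -0.59 ± 0.28 (edgeR unadjusted p = 0.0473, adjusted p = 1.0). The levels of Hdac11 were 12.0 ± 1.95 against 18.1 ± 3.62 CPM (SD, n = 3 each). Its intact means were 20.7, 22.3 and 24.4 CPM at 1, 8 and 12 months. The age groups also differed in sex: all 12 libraries at 1 and 8 months held counts of Y-linked genes and none of Xist, while all 6 at 12 months held no Y-linked count and 5 held Xist. Age and sex at 12 months therefore cannot be told apart. Hdac6 and Hdac8, the X-linked members, had log2 changes of -0.18 ± 0.51 and -0.21 ± 0.90 between 12 and 1 month in intact neurons, and 0.36 ± 0.48 and 0.13 ± 0.84 in injured neurons (edgeR adjusted p from 0.953 to 1.0).

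The joint test of whether the injury effect depended on age called no member and 0.0% of all genes (edgeR, 2 degrees of freedom). No member and 1161 genes had an unadjusted p below 0.05, and DESeq2, which called 207 genes, and limma-voom, which called 6, called no member either. The smallest unadjusted values among the members were 0.106 for Hdac11 and 0.107 for Hdac1. The sign of the injury effect was the same at all 3 ages for Hdac3, Hdac6, Hdac7 and Hdac8 (higher) and for Hdac4 and Hdac11 (lower), while 21.2% and 18.1% of all genes were higher or lower at all 3 ages.

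The partners and counterparts of these enzymes were read from lists of genes that act with them. Of 34 genes of HDAC corepressor complexes, which bring class I enzymes to chromatin, all were tested and 0 passed in either direction (median log2 change -0.05, 15 of 34 above 0). The smallest adjusted p was that of Tbl1x, a subunit of the NCoR complex, at 16.7 ± 3.42 CPM in injured against 23.8 ± 5.63 CPM in intact libraries (log2 change -0.49 ± 0.18, edgeR adjusted p = 0.117). Of 12 histone acetyltransferases, which add the acetyl groups, 0 passed (median 0.07). Ncoa3 had the smallest adjusted p at a log2 change of 0.51 ± 0.22 (edgeR adjusted p = 0.196). Of 6 readers of acetyl-lysine, 0 passed (median -0.05, smallest adjusted p 0.249 for Brd9). Of 7 sirtuins, the NAD-dependent deacetylases, 0 passed (median -0.07). Sirt5, a mitochondrial enzyme, was at 5.47 ± 1.26 CPM in injured against 8.98 ± 3.65 CPM in intact libraries (log2 change -0.74 ± 0.24, edgeR adjusted p = 0.0762). Sirt1 was at 0.950 ± 0.289 and 0.394 ± 0.602 CPM (log2 change 2.07 ± 0.73, edgeR adjusted p = 0.107). The median over all genes tested was 0.03.

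Among the partners 3 genes were called, in a comparison that called 6.18% of all genes tested. Of 23 genes for class IIa kinases, 14-3-3 proteins and MEF2 factors, 21 were tested, and 1 rose and 0 fell (median -0.05). That gene was Camk1, a calcium and calmodulin-dependent kinase able to phosphorylate class IIa enzymes, at 85.7 ± 24.8 CPM in injured against 29.1 ± 12.1 CPM in intact libraries (n = 9 each), a log2 change of 1.5 ± 0.27 (edgeR adjusted p = 0.00309). Of 11 Hdac6 substrates and genes of tubulin acetylation, 2 rose and 0 fell (median 0.10). Cttn, which encodes the Hdac6 substrate cortactin, was at 121 ± 17.4 CPM in injured against 59.7 ± 19 CPM in intact libraries (log2 change 1.04 ± 0.18, edgeR adjusted p = 0.00175). The lowest injured library, at 89.998 CPM, was only just above the highest intact one, at 89.3 CPM. The share of all genes with injured and intact libraries apart over all ages was not computed. Tuba1c, an alpha-tubulin gene, was at 418 ± 78.2 and 233 ± 75.5 CPM (log2 change 0.83 ± 0.23, edgeR adjusted p = 0.0395), and its call was lost in 15 of 27 alternatives. Tuba1a was at 2490 ± 495 and 1414 ± 596 CPM with the same log2 change of 0.83 ± 0.27 and did not pass (edgeR adjusted p = 0.0781). Alpha-tubulin genes are close copies, so their counts are uncertain. With the share of CT010467.1 as a covariate none of the 3 calls held (edgeR adjusted p = 0.649 for Camk1, 0.367 for Cttn and 0.926 for Tuba1c). That share itself differed by condition (medians of 39% in injured and 65.7% in intact libraries), and the fit called few genes in all. The SE rose from 0.27 to 0.61 for Camk1, from 0.18 to 0.39 for Cttn and from 0.23 to 0.43 for Tuba1c. The log2 changes moved as well, to 0.73 for Camk1, 0.88 for Cttn and -0.16 for Tuba1c, the last with its sign turned. How much of the loss of these calls came from lower precision was not tested.

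**Figure D4:**
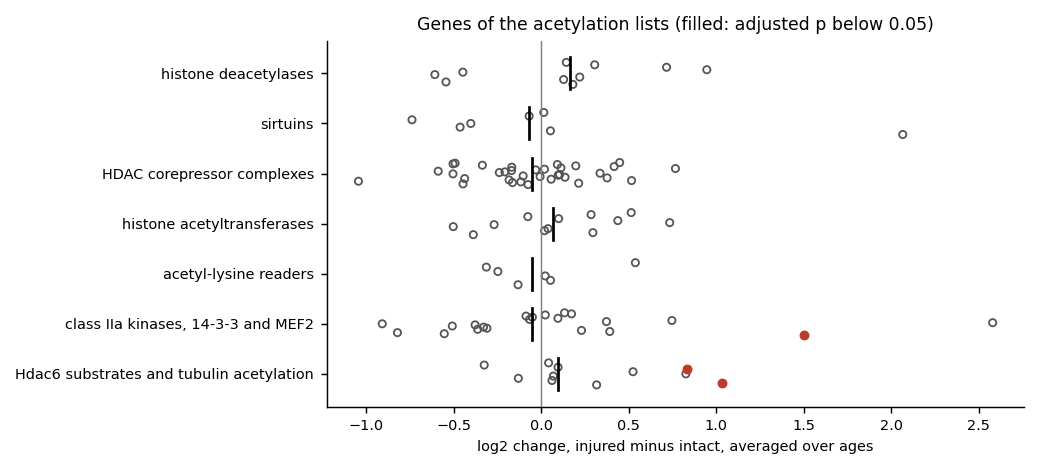
Log2 change between injured and intact low-input libraries, averaged over ages (edgeR with TMM scaling), of each tested gene of the deacetylases and 6 related lists, with the list median as a bar. Filled points passed an adjusted p of 0.05 and are Camk1 (1.5), Cttn (1.04) and Tuba1c (0.83).

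Across the 18 libraries the genes whose log2 CPM followed that of Hdac11 most closely were Thap3 (Pearson r = 0.80), Trnp1 (r = 0.79) and Rplp1 (r = 0.78), where the 99th percentile over all other genes was 0.58. These values are a description, since the libraries share their groups and depth. All 3 genes fell in injured neurons relative to the other transcripts, with log2 changes of -0.92, -1.05 and -0.73 (edgeR adjusted p = 0.0388, 0.00325 and 0.0157). That comparison called 6.18% of all genes. The 3 were chosen for following Hdac11, itself lower in injured libraries, over these same libraries. Their shared direction is therefore partly set by the choice and is no separate result. Among the members themselves, the closest pairs over the same libraries were Hdac5 with Hdac7 (r = 0.69), Hdac9 with Hdac6 (r = 0.68) and Hdac4 with Hdac5 (r = 0.66), and the most opposed pair was Hdac2 with Hdac4 (r = -0.78).

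Single cells show in how many neurons each transcript was found. Because the labels name no animal, the 4 groups were treated as single samples, without a test. CPM in cells were computed without CT010467.1 in the total, so their level cannot be set beside the CPM of the low-input libraries. Cells held a median of 1033580 counts outside that feature in injured and 291824 in intact cells at 1 month, and 3524089 and 7145018 at 1 year. The median cell had counts of 8 of the 10 members in injured and 7.5 in intact cells at 1 month, and of 9 and 10 at 1 year. All 10 were found in 6 of 21, 5 of 18, 8 of 22 and 5 of 8 cells. Hdac3 was found in 18 of 21 injured cells at 1 month (85.7%, exact Clopper-Pearson 95% interval 63.7% to 97.0%) and Hdac7 in 9 of 21 (42.9%, 21.8% to 66%). With each cell of at least 200000 counts thinned to that number, which kept 16, 10, 16 and 8 cells, the expected share with Hdac7 was 23.9%, 28.6%, 25.4% and 39%, and that with Hdac3 was 86.8%, 87.6%, 98.6% and 87.9%.

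Hdac11 was lower in injured than in intact single cells at both ages. Pooled over cells it was at 18.4 CPM in injured (exact Poisson 95% interval 17.3 to 19.6) and 55.3 CPM in intact cells (52.9 to 57.7) at 1 month. At 1 year it was at 25.2 (24.1 to 26.2) and 47.7 CPM (46 to 49.6). These intervals, like those of shares, cover counting error only. All 8 intact cells at 1 year had Hdac11 counts, between 35.7 and 66 CPM. Of the 18 injured cells at 1 year with at least 100000 counts, 17 lay below the lowest of those 8, at a median of 24.1 CPM against 48.9 CPM. At 1 month 14 of 17 injured cells of that depth lay below the intact median of 48.8 CPM, and the injured median was 10.8 CPM. The thinned shares of cells with a count were 74.6% in injured and 89.7% in intact cells at 1 month, and 85.6% and 100% at 1 year. The log2 ratio of the pooled levels was -1.58 at 1 month and -0.92 at 1 year, and -0.81 and -1.43 when each cell had equal weight. Of all genes with at least 10 counts in both groups, 7.06% had a lower pooled ratio at 1 month and 8.66% at 1 year. The share of all genes that set the cells apart in this way was not computed, and cells are not replicates of a condition.

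Hdac6 did not stand higher in injured single cells, unlike in the low-input libraries, although that difference was not tested. It was at 31.5 CPM in injured (29.97 to 33) and 34.5 CPM in intact cells (32.6 to 36.4) at 1 month and at 39.9 (38.6 to 41.2) and 41.7 CPM (40.05 to 43.4) at 1 year. The 1-month injured sum drew 33.7% of its counts from 1 cell. Over cells of at least 100000 counts the Hdac6 median was lower in injured cells at both ages. It was 18.3 against 23.98 CPM at 1 month, with 10 of 17 injured cells below the intact median. At 1 year it was 34.3 against 53.4 CPM, with 14 of 18 injured cells below the intact median. When each cell had equal weight the log2 ratio of Hdac6 was 0.03 at 1 month and -0.57 at 1 year. Hdac5 was lower in injured cells at both ages, at 15.4 against 43.4 CPM at 1 month and 28.7 against 65.4 CPM at 1 year. For Hdac5, 42.8% of the intact counts at either age came from 1 cell. Without the cell richest in Hdac5 in each group the log2 ratio went from -1.499 to -1.0 at 1 month and from -1.19 to -0.44 at 1 year. Hdac3 was at 81.4 against 41.9 CPM at 1 month, a log2 ratio of 0.96, and at 73 against 66.5 CPM at 1 year, a log2 ratio of 0.14. In cells of at least 100000 counts, the Hdac3 median was 99.7 against 38.9 CPM at 1 month and 46.9 against 75.6 CPM at 1 year, so its direction at 1 year turned with the average used.

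**Figure D5:**
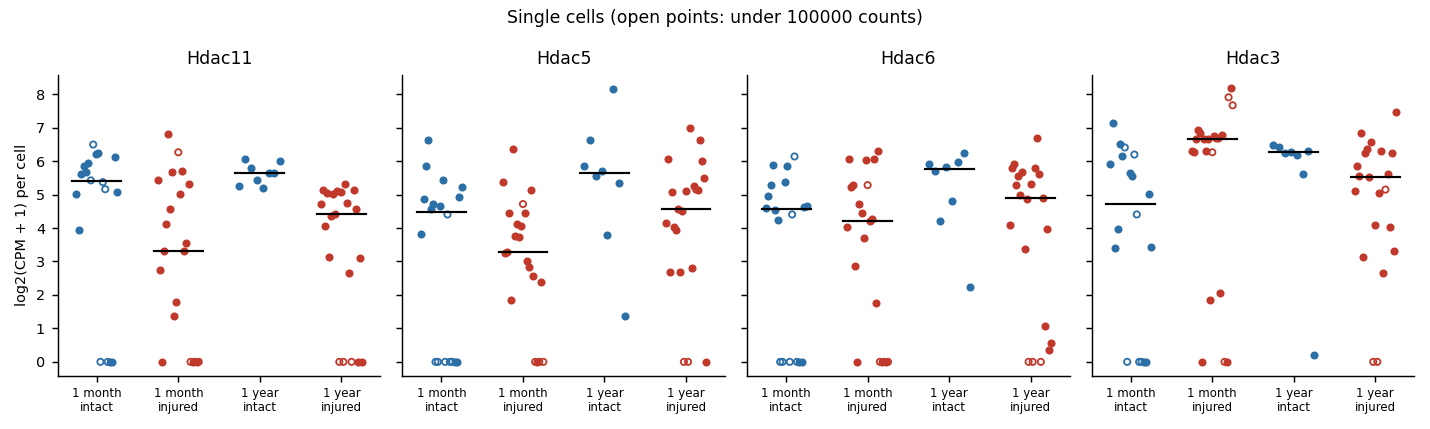
Level per single cell of 4 genes as log2(CPM + 1), with CPM computed without CT010467.1. Each point is a cell, intact in blue and injured in red, open where the cell held under 100000 counts, and bars are medians over all cells with counts. Hdac11 lies between 35.7 and 66 CPM in the 8 intact cells at 1 year and mostly below that range in injured cells of that age.

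The other members differed less evenly between ages. Hdac1 was at 21 CPM in injured against 41.2 CPM in intact cells at 1 month, where 43.6% of the intact counts came from 1 cell, and at 24.6 and 12.8 CPM at 1 year. Hdac2 was at 84.6 and 67.9 CPM at 1 month and at 50.9 and 49.8 CPM at 1 year. Hdac4 was at 27.7 and 40.5 CPM, then 33.6 and 28.8 CPM. Hdac8 was at 7.25 and 8.34 CPM, then 10.8 and 8.51 CPM. Hdac9 was at 18.8 and 10.7 CPM, then 17 and 23 CPM. Hdac7 was at 2.82 and 3.94 CPM at 1 month and at 2.11 and 15.5 CPM at 1 year, and 84.2% of those last counts were from 1 cell. Without it the 1-year intact level was 2.76 CPM. A ratio of at least 2-fold either way was found for 2 members at 1 month (Hdac5 and Hdac11) and 2 at 1 year (Hdac5 and Hdac7). Of all genes with at least 10 counts in both groups, 23.9% and 17.8% passed that ratio, so the family's share of 2 in 10 was near the background. Per kb of exon, Hdac3 was highest in injured cells at 1 month (20.2 CPM per kb), followed by Hdac2 (18.9), while Hdac2 (15.2) and Hdac11 (14.4) led in intact cells of that age. At 1 year Hdac3 was highest in both injured (18.1 CPM per kb) and intact cells (16.5 CPM per kb).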

How the data were processed

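The deposited values are raw fragment counts over genes, which the authors made with featureCounts 1.5.2 over exons, paired-end and unstranded, per the file headers; STAR, Trim Galore and mm10 are listed in the submitters' processing notes. The deposited summed exon lengths (unit other) gave CPM per kb. Of 87 count columns, 0 were unused. Low-input counts were fitted with edgeR 4.0.16 (R 4.3.3): spike-ins out, filterByExpr, TMM, robust quasi-likelihood with 1 mean for each of the 6 groups, 12 residual degrees of freedom, Benjamini-Hochberg adjustment over 14212 genes. The pipeline was tested on simulated data. Log2 changes carry SE, CPM are mean ± SD, tests are two-sided. Members and lists were chosen with earlier results of these data known. All 10 members are named; other lists give at most 5 genes by smallest adjusted p, and likeness the 3 highest Pearson r for the member with the smallest adjusted p. Alternatives were RLE and spike-in scaling, 2 filters, the dominant feature left out or as covariate, DESeq2 1.42.0, limma-voom 3.58.1, only the libraries compared, a replicate block, each library left out, and other averages over cells. Libraries with the same replicate number deviated together at 1 month (r = 0.109, 0.371 and 0.328 over 2365 genes) and not at 8 or 12 months. Promoters are from RefSeq. No cell was left out of pooled levels. Protein sequences were not used here.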

Additional observations from a re-analysis of the deposited data

Results flagged for a closer look

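Over the 9 injured or 9 intact libraries of all ages, a gap test of the highest and lowest library was made for each member, in 20 sets, and chance alone would mark about 1 in 20. It marked 6. Hdac2 reached 43.3 CPM in intact replicate 1 at 12 months. Hdac5 reached 39.7 CPM and Hdac7 9.03 CPM in intact replicate 2 at 12 months, the library with the fewest counts. Among injured libraries, Hdac3 was lowest at 14.5 CPM and Hdac4 highest at 22.3 CPM, both in replicate 1 at 8 months. Hdac9 was highest at 16.6 CPM in injured replicate 2 at 12 months.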

How the results depend on the processing

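Of 306 counts of members called under the alternatives, 285 equalled the reported 0. Spike-in scaling called 10 members in the averaged injury contrast, 10 at 12 months and 10 for 12 against 1 month in intact neurons, and with them 13493, 13675 and 12776 of 14212 genes. In the averaged contrast DESeq2 and limma-voom called 2 members each (1548 and 1244 genes in all), and RLE scaling, no filter and the stricter filter 1 each (886, 1722 and 607 genes). At 12 months DESeq2, RLE scaling and the stricter filter called 1 (1238, 430 and 419 genes), and DESeq2 called 1 for 12 against 8 months in intact neurons (2220 genes). Leaving out single libraries gave 0 to 1 members in these 3 contrasts. Averaged log2 changes under spike-in scaling were 3.21 (Hdac1), 2.85 (Hdac2), 3.04 (Hdac3), 3.54 (Hdac8), 2.59 (Hdac4), 2.63 (Hdac5), 3.75 (Hdac7), 2.60 (Hdac9), 3.66 (Hdac6) and 2.26 (Hdac11), around a median of 2.90 over all genes, and relative to that median Hdac6 was at 0.77 and Hdac11 at -0.64. Hdac11 was at 0.95, 1.46 and 4.36 at 1, 8 and 12 months under that scaling. With the share of CT010467.1 as a covariate the averaged changes turned to -0.72 (Hdac2), -0.80 (Hdac3), 1.63 (Hdac4), 1.21 (Hdac5), -1.95 (Hdac8) and -0.38 (Hdac9), and Hdac6 at 12 months to -0.11; that fit called 11 genes in all. Hdac5 was 0.077 under limma-voom. Hdac11 was -0.57 under DESeq2, -0.57 under RLE scaling, -0.58 under limma-voom and -0.56 under the stricter filter, and Hdac6 was 0.93 under DESeq2, 0.92 under limma-voom and 0.97 with no filter. Over single libraries left out, Hdac11 ranged from -0.60 to -0.48, Hdac6 from 0.81 to 1.21, Hdac5 from -0.66 to 0.15 and Hdac9 from -0.054 to 0.32. For the injury contrasts a replicate block paired libraries of the same number at every age, although such libraries deviated together only at 1 month. With a replicate block no member was called in any contrast. Hdac6 was then at 1.06 (edgeR adjusted p = 0.0978) and Hdac11 at -0.53 (edgeR adjusted p = 0.177). Of 160 single-cell values under other averages, 2 moved by more than the SD over cells: Hdac11 at 24.4 and Hdac3 at 34 CPM in intact cells at 1 year, with CT010467.1 in the total. That SD is a wide limit and can exceed the level itself, so the count does not show that single-cell levels were stable. Hdac7 in intact cells at 1 year went from 15.5 to 2.76 CPM without its top cell, within an SD of 40.6 CPM. Leaving out the cell richest in a member was an alternative chosen after seeing the data. The causes were not tested. Libraries of few counts limit Hdac7, Hdac8 and all members in intact replicate 2 at 12 months.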
